A study of Mus musculus with 2 samples.

Results

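The 10 genes described here are the bone morphogenetic protein (BMP) ligand gene Bmp4, the BMP receptor genes Bmpr1a, Bmpr1b and Bmpr2, the inhibitory SMAD genes Smad6 and Smad7, and the Id genes Id1, Id2, Id3 and Id4. They were taken by symbol from a table of 24369 gene rows, and all 10 were found once. The samples are alveolar type 2 cells (type II pneumocytes, the surfactant-making cells of the lung) sorted from wild-type C57BL6 mice, with 1 library at postnatal day 7 (P7) and 1 at postnatal day 28 (P28). Neither age carried a treatment or an engineered allele per the labels, and the sources used here give neither the sort markers nor how many mice went into each library. Each gene has 1 value per library in RPKM (a read number corrected for gene length and sequencing depth, so that levels of different genes can be compared). With 1 library per age there is no replicate error and no p-value. "Higher" and "lower" therefore compare these 2 libraries, and the range given after a ratio or fold is its 95% exact interval from read numbers, which covers counting error alone.

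BMP ligands bind pairs of type I and type II receptor kinases, which phosphorylate SMAD1, SMAD5 and SMAD9. These enter the nucleus with SMAD4 and switch on target genes, among which the Id genes are the best known. Id proteins lack a DNA-binding region and hold back the basic helix-loop-helix factors called E proteins by pairing with them. SMAD6 and SMAD7 are made in response to the signal and shut it off. In the developing lung BMP4 is made at the distal tips, and in the adult alveolus BMP signalling bears on the balance between type 2 cell renewal and type 1 cell formation.

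Among these genes Id3, Id1 and Smad6 had the largest folds between the ages. Id1, Id2 and Id3 were 3.68-fold, 2.06-fold and 4.20-fold lower at P28, while Bmp4, Bmpr1a and Bmpr2 were 1.69-fold, 1.33-fold and 1.48-fold lower. Smad6 was 3.58-fold lower from a low level, Smad7 1.44-fold lower, and Bmpr1b and Id4 were below 1 RPKM in both libraries. Counts were made on the log2(RPKM + 1) scale, for genes that reached 1 RPKM in either library. Of the 10 genes 8 passed that filter, and 3 of them were at least 2-fold lower at P28 (Id1, Id2 and Id3), 0 were at least 2-fold higher, and 5 lay within 2-fold. Over all 9653 genes that passed, 1.96% (189) were at least 2-fold lower and 1.18% (114) at least 2-fold higher. That split was 445 to 65 with both libraries set to the same total RPKM, 151 to 144 with the median of all genes set to 0 and 155 to 142 with equal upper quartiles. Id2 was within 2-fold under the last 2 settings and with a pseudocount of 5. By the plain RPKM ratio, with an interval that lies below 1 and no filter, 5 of the 10 genes were at least 2-fold lower (Id1, Id2, Id3, Id4 and Smad6), against 8.65% of all 15672 genes with a read and 6.16% of those that reached 1 RPKM. The median log2 ratio was -0.77 for the 8 genes and -0.08 for all genes, and equal totals moved the median of all genes by -0.29.

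**Figure D1:**
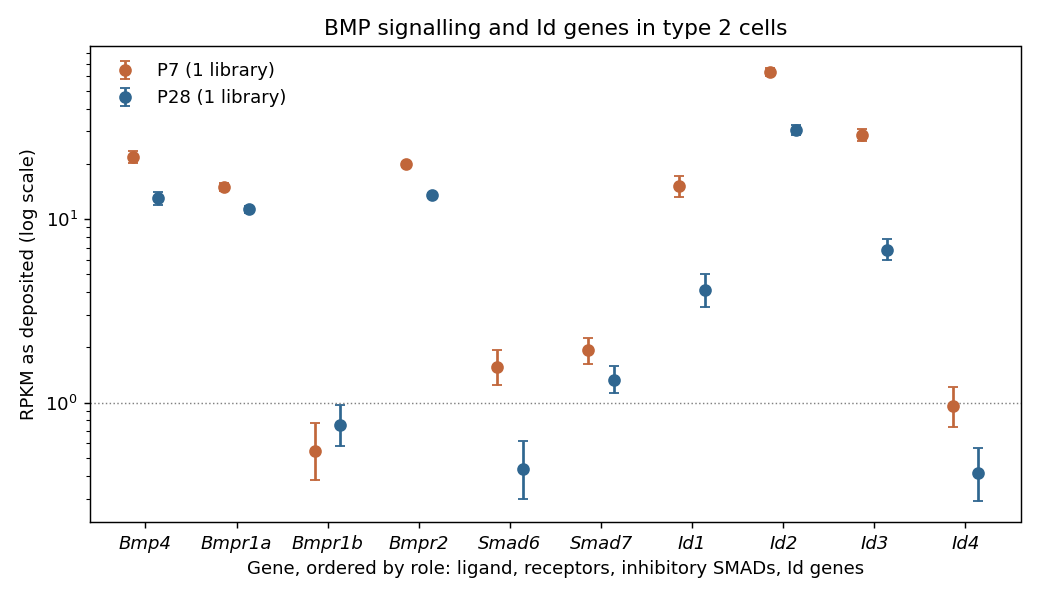
RPKM of the 10 genes at P7 and P28 on a log axis, 1 library per age, with bars for the 95% Poisson interval of the read number. The dotted line is at 1 RPKM. Id2 is the highest in both libraries, at 63.4 and 30.7 RPKM, and Bmpr1b is the one gene whose P28 value lies above its P7 value.

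Markers of other cells and of sex also differed between the libraries. Type 2 markers summed to 18307 RPKM at P7 and 35099 at P28 and were all at 1 RPKM or more in at least 1 library, led by Sftpc, the surfactant protein C gene, at 13343 and 24085. Endothelial markers summed over 11 genes to 58.6 and 28.2 RPKM. Of the 10 that passed the filter, 6 were at least 2-fold lower at P28 (1.96% of all genes were). Among these, Emcn (3.65 and 0.751 RPKM) and Cldn5 (2.45 and 0.546) passed through their P7 values alone. Fibroblast markers summed over 10 genes to 46.8 and 25.5 RPKM but went in both directions. Of the 7 that passed, 2 were at least 2-fold lower and 6 had a log2 ratio below 0 (1.96% and 60.7% of all genes). Postn (4.03 and 0.346 RPKM), among those 2-fold lower, passed through its P7 value alone. Plain ratios on that list ran from 0.0857 to 4.81, with a median of 0.638. Dcn (0.490 and 1.35 RPKM), Pdgfra (0.152 and 0.730) and Lum (0 and 0.118) were higher at P28, Pdgfra and Lum below 1 RPKM in both libraries. The 8 smooth muscle and pericyte markers summed to 4.52 and 1.11. The 7 erythroid rows, 2 of them holding the same values, summed to 47.9 and 1.73 RPKM. The 6 that passed the filter did so through P7 alone, so each of them had to be lower at P28. Leukocyte markers summed over 8 genes to 4.23 and 3.75 RPKM, and 2 passed the filter. Cd14 had 3.52 and 2.55 RPKM, and Cd68 had 0.455 and 1.08. Ptprc and Laptm5 were below 1 RPKM in both libraries, and Marco, C1qa, C1qb and Adgre1 were at 0 in both. Type 1 markers summed to 346 and 210 RPKM, with 2 of 8 at least 2-fold lower and 7 with a log2 ratio below 0. Club cell markers summed to 7219 and 18953, and ciliated cell markers to 92.6 and 103. Xist was at 52.7 RPKM at P7 and 0.245 at P28, whereas the Y-linked Ddx3y was listed at 0 and at 4.01, so age and sex of the mice cannot be told apart. Endothelial cells, fibroblasts and pericytes also express BMP receptors, Id genes and Smad6. In such bulk libraries fewer cells of a type and less RNA per cell cannot be told apart, and the part of these cells in the differences below was not tested.

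Bmp4 encodes the ligand of the group. The gene lies on chromosome 14, 46383520 to 46390669 on the minus strand of GRCm38, and is protein coding. It had 21.8 RPKM at P7 and 12.9 at P28, a ratio of 0.593 (0.531 to 0.663). It ranked 560 among the 24369 rows at P7 and 1087 at P28. The difference on the log2(RPKM + 1) scale was -0.71, within 2-fold, and it became -1.08 when both libraries were set to the same total RPKM. Bmp4 made up more RPKM than the 13 other BMP ligand genes together at P7, which summed to 13.5, and less than their 19.2 at P28.

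The other ligand genes that reached 1 RPKM, 3 of 13, had higher RPKM at P28, and 0 of them were 2-fold apart. Bmp3, which encodes a divergent BMP known to oppose the others, had 6.59 and 11.3 RPKM, a ratio of 1.72 (1.58 to 1.87). Bmp5, a ligand of another BMP subgroup, had 3.998 and 5.48 RPKM, a ratio of 1.37 (1.18 to 1.60). Bmp2, a close relative of Bmp4, had 1.497 and 1.87 RPKM with an interval of 0.958 to 1.62 that includes 1, and its ratio went from 1.25 to 0.9498 with equal totals. Bmp3 and Bmp5 stayed above 1 with equal totals, at 1.31 and 1.04. The mix of ligand transcripts thus held relatively more Bmp3 and Bmp5 beside Bmp4 at P28.

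Of the receptors, Bmpr2 and Bmpr1a were both expressed well above 1 RPKM and Bmpr1b was not. Bmpr2, the type II receptor that is specific to BMPs (chromosome 1, 59763400 to 59879014, plus strand), had 19.9 RPKM at P7 and 13.4 at P28, a ratio of 0.676 (0.648 to 0.705). Bmpr1a, a type I receptor (chromosome 14, 34410734 to 34503341, minus strand), had 15.0 and 11.3 RPKM, a ratio of 0.753 (0.702 to 0.807). Their log2 ratios of -0.53 and -0.38 were within 2-fold. Both intervals lay above those of Id1, Id2 and Id3.

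Bmpr1b, a second type I receptor gene (chromosome 3, 141837136 to 142169425, minus strand), had 0.545 RPKM at P7 and 0.753 at P28. About 33 and 63 reads stood behind these values. The ratio of 1.38 has an interval of 0.884 to 2.15, so no difference between the libraries was detectable at this depth. Bmpr1a was 27.5-fold above Bmpr1b per length at P7 and 15.0-fold above it at P28. Relative to Bmpr1a, Bmpr1b was 1.83-fold higher at P28 than at P7 (interval 1.17 to 2.87), a comparison within each library in which the scaling cancels. The corresponding value of Bmpr1a over Bmpr2 was 1.11 (1.03 to 1.21), so the 2 main receptor genes kept nearly the same proportion.

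Other receptors that BMPs can use were lower expressed. Among 10 receptor and co-receptor genes 7 reached 1 RPKM, none was 2-fold apart, 5 had a log2 ratio below 0 and the list median was -0.19. The highest was Neo1, a receptor for repulsive guidance molecules that act as BMP co-receptors, with 8.70 and 5.84 RPKM, a ratio of 0.671 (0.613 to 0.736). Acvrl1 (ALK1) and Eng (endoglin), which are known as endothelial receptors, had 1.14 and 0.623 RPKM and 1.65 and 1.04 RPKM. Rgmb, a repulsive guidance molecule, had 2.13 and 2.72 RPKM, and its ratio of 1.27 (1.08 to 1.51) turned to 0.968 when the totals were equalised.

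**Figure D2:**
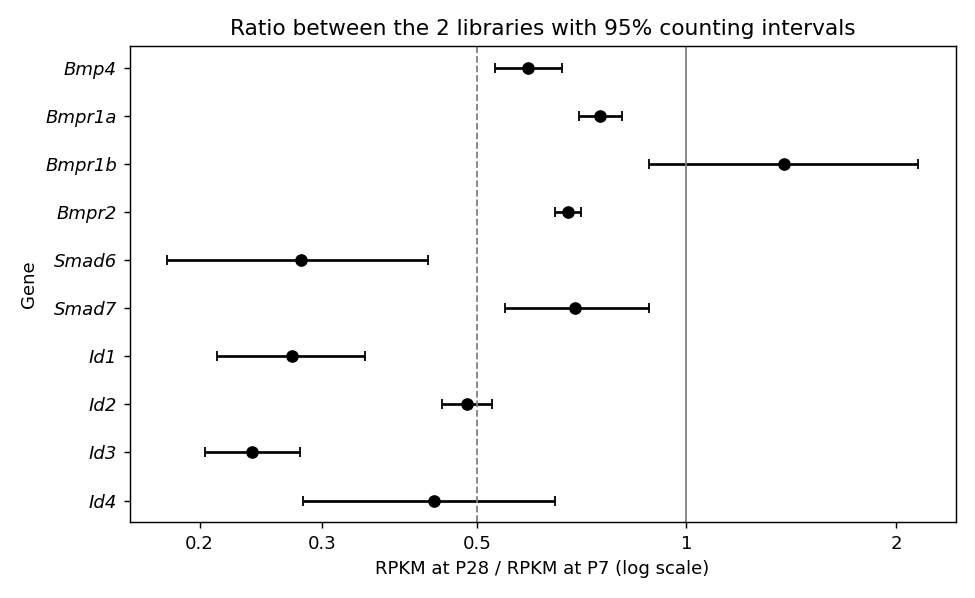
Ratio of RPKM at P28 over P7 on a log axis for each gene, with 95% exact counting intervals. The solid line marks 1 and the dashed line 0.5. Intervals of Id1, Id3 and Smad6 lie wholly below 0.5, that of Id2 (0.445 to 0.526) reaches across it, and that of Bmpr1b includes 1.

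Both inhibitory SMAD genes were lowly expressed. Smad6 encodes the inhibitor most specific to BMP receptors and lies on chromosome 9, 63953076 to 64022059, on the minus strand. It had 1.57 RPKM at P7 and 0.438 at P28, from about 82 and 32 reads. The plain ratio was 0.279 (0.180 to 0.425), 3.58-fold lower at P28. On the log2(RPKM + 1) scale the difference was -0.84, within 2-fold, since the added 1 exceeds the P28 value, and with a pseudocount of 0.1 it was -1.63. It was -1.02 with both libraries set to the same total RPKM. Whether Smad6 counts as 2-fold lower therefore depends on the pseudocount and on the scaling.

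Smad7, which inhibits both BMP and TGF-beta receptors, had 1.93 RPKM at P7 and 1.34 at P28, a ratio of 0.692 (0.548 to 0.884). Smad6 was lower at P28 by more than Smad7, 2.48-fold relative to it (1.52 to 4.12). The signal-carrying SMAD genes differed less, apart from Smad9. Smad1, Smad5 and the shared partner Smad4 had ratios of 0.869 (0.734 to 1.03), 0.958 (0.863 to 1.06) and 0.860 (0.7501 to 0.987). Smad9, the remaining signal carrier, went from 2.47 RPKM to 0.778, a level 3.17-fold lower at the later age (2.49 to 4.02), with a log2 ratio of -0.96.

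The Id genes are direct targets of BMP-activated SMADs. Promoter sequences of targets are shown because SMAD1 and SMAD5 complexes are known to bind GC-rich elements of the form GGCGCC or the form GGAGCC, while CAGAC is a SMAD box. Windows of 250 bases before RefSeq starts (GRCm38.p6) were used for 8 of the 10 genes, 10 windows in total. Id1 and Smad7 are named only. The Id3 window, chr4:136143572-136143821, lies wholly inside an exon of a longer GENCODE transcript and is described without its letters, and the Id2 window (chr12:25096093-25096342) is shown for the 89 bases outside such an exon. Those Id2 bases lie inside the annotated span of the gene (25093799 to 25097140), so they are not upstream of its outermost start. The stretches shown lie at chr12:25096254-25096342 on the minus strand (Id2), chr13:48260866-48261115 on the plus strand (Id4) and chr9:64022060-64022309 on the minus strand (Smad6). Each runs 5′ to 3′ along the gene, and capitals mark matches to these motifs on either strand. The reverse of GGAGCC is GGCTCC, and that of CAGAC is GTCTG.
Id2: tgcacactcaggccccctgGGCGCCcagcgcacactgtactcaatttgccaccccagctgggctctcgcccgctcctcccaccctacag
Id4: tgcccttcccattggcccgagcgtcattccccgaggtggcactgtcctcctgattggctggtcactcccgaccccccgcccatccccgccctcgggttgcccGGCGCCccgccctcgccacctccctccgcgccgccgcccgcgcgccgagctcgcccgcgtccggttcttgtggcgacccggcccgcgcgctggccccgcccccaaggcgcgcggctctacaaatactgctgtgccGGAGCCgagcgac
Smad6: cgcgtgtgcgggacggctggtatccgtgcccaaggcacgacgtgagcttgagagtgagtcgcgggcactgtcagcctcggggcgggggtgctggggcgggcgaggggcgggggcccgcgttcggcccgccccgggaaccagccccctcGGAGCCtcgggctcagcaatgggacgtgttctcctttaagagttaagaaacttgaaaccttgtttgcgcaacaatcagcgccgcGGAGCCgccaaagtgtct

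The whole Id2 window held 1 GGCGCC, at 231 bases before the start, and 1 GGAGCC at 88 bases. The Id4 window held 1 of each as well, at 148 and 13 bases. The Id3 window held 1 GGAGCC (187 bases) and 2 CAGAC (167 and 68 bases), and the Smad6 window 2 GGAGCC (102 and 18 bases). No matches overlapped. Of 32851 such windows in the table, 9.59% held GGCGCC, 26.0% held GGAGCC and 42.2% held CAGAC. GC content was 62.8% in the Id2 and Id3 windows, 75.6% for Id4 and 66.8% for Smad6, against a median of 52.4%. These matches describe the letters in the windows and are not measured sites.

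Id3 (chromosome 4, 136143497 to 136145755, plus strand) had 28.7 RPKM at P7 and 6.83 at P28. It was 4.20-fold lower at P28 (3.58 to 4.91), with a log2 ratio of -1.92. Of the 9653 genes that passed the filter 19 had a lower log2 ratio. In rank Id3 went from 429 of all rows at P7 to 2336 at P28.

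Id1 (chromosome 2, 152736251 to 152737410, plus strand), the Id gene most used as a readout of BMP signalling, had 15.1 RPKM at P7 and 4.09 at P28. It was 3.68-fold lower at P28 (2.89 to 4.72), with a log2 ratio of -1.66, and 35 genes had a lower one. Its rank was 902 at P7 and 3819 at P28. The difference of Id1 was close to that of Id3, with a ratio of the 2 ratios of 1.14 (0.846 to 1.52), an interval that includes 1.

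Id2 (chromosome 12, 25093799 to 25097140, minus strand), a marker of the distal lung tip in the embryo, was the most abundant of the 10 genes in both libraries. It had 63.4 RPKM at P7 and 30.7 at P28, ranks 179 and 411. The ratio of 0.484 (0.445 to 0.526) and the log2 ratio of -1.02 put it just past 2-fold. Over the 6 other pseudocounts and scalings it ranged from -1.41 to -0.93 and was past 2-fold in 3, while Id1 and Id3 were past it in 6 of 6. Relative to Id2, Id1 was 1.78-fold lower at P28 (1.38 to 2.32), and Id2 over Id3 gave 2.03 (1.70 to 2.43). Both comparisons are within a library and do not rest on the scaling.

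Id4 (chromosome 13, 48261228 to 48266026, plus strand) was the lowest of the Id genes, with 0.958 RPKM at P7 and 0.416 at P28. About 65 and 39 reads gave a ratio of 0.435 (0.281 to 0.649). It did not pass the filter of 1 RPKM and is left out of the counts on the log2(RPKM + 1) scale. Genes on the opposite strand overlap Id4, Bmp4 and Bmpr1a in the GENCODE annotation, and the labels do not say whether the counting used strand, so reads of such pairs cannot be told apart. Another gene model, Gm38125, on the same strand lies within Bmpr2. No other annotated gene overlaps Id1, Id2 or Id3.

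Together the Id genes summed to 108 RPKM at P7 and 42.1 at P28, a ratio of 0.389 as deposited and 0.296 with equal totals. Id2 made up 58.7% of the sum at P7 and 73.0% at P28. The share of Id3 was 26.5% and 16.2%, that of Id1 13.9% and 9.73%, and that of Id4 0.886% and 0.990%. In both libraries the order by level was Id2, Id3, Id1, Id4, and the gaps between neighbours were wider than their counting intervals. The Id pool was thus smaller at P28 and weighted further toward Id2.

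**Figure D3:**
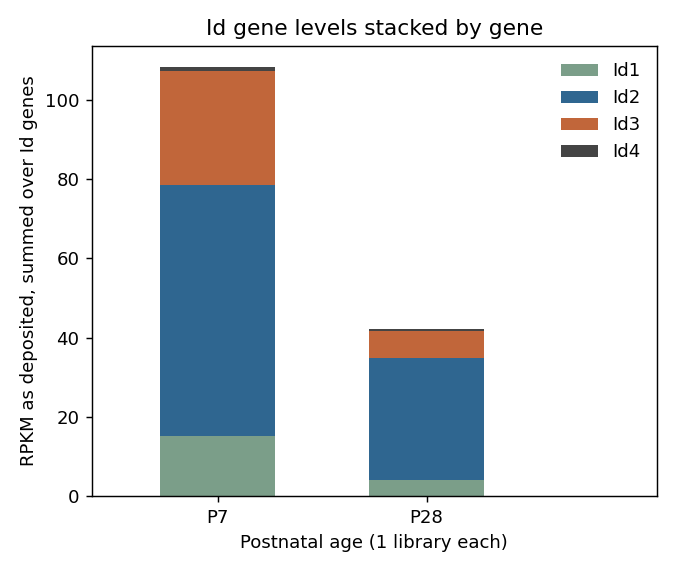
RPKM of Id1, Id2, Id3 and Id4 stacked for each library, from 0. The stack reaches 108 RPKM at P7 and 42.1 at P28, and Id2 fills 58.7% and 73.0% of it.

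The levels of the Id genes were also set beside the endothelial, the fibroblast, and the smooth muscle and pericyte markers. The 11 endothelial markers had plain ratios from 0.206 to 1.06 with a median of 0.369. That range holds the ratios of Id1, Id2 and Id3, and also those of all the other BMP and Id genes except Bmpr1b. Esam, the marker at 1.06, made up 36.4% of the endothelial sum at P28, and the sum had a ratio of 0.480 with it and 0.366 without it. Per RPKM of that sum Id2 had 1.08 at P7 and 1.09 at P28, or 1.30 and 1.71 without Esam. The same quantity was 0.489 and 0.242 for Id3, or 0.585 and 0.381 without Esam, and 0.257 and 0.145 for Id1, or 0.308 and 0.228. Smad6, like Id1 and Id3, was lower per endothelial RPKM at P28 (0.0267 and 0.0155, or 0.0320 and 0.0244), whereas Bmp4 was higher (0.373 and 0.460, or 0.446 and 0.722). Per fibroblast RPKM Id1 had 0.322 and 0.161 and Id3 0.613 and 0.268, or 0.554 and 0.370 and 1.05 and 0.618 without Mfap4, which made up 56.6% of that sum at P28. Per smooth muscle and pericyte RPKM Id1 was higher at P28 (3.34 and 3.69, or 6.06 and 6.29 without Acta2). So was Smad6 (0.347 and 0.395, or 0.630 and 0.673). Id3 was slightly lower (6.34 and 6.15, or 11.5 and 10.5) and Id2 higher (14.0 and 27.7, or 25.5 and 47.2). That list is near the floor, with sums of 4.52 and 1.11 RPKM. These values thus moved with the choice of list and of single markers, and whether other cells contributed to the Id differences was not tested.

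**Figure D4:**
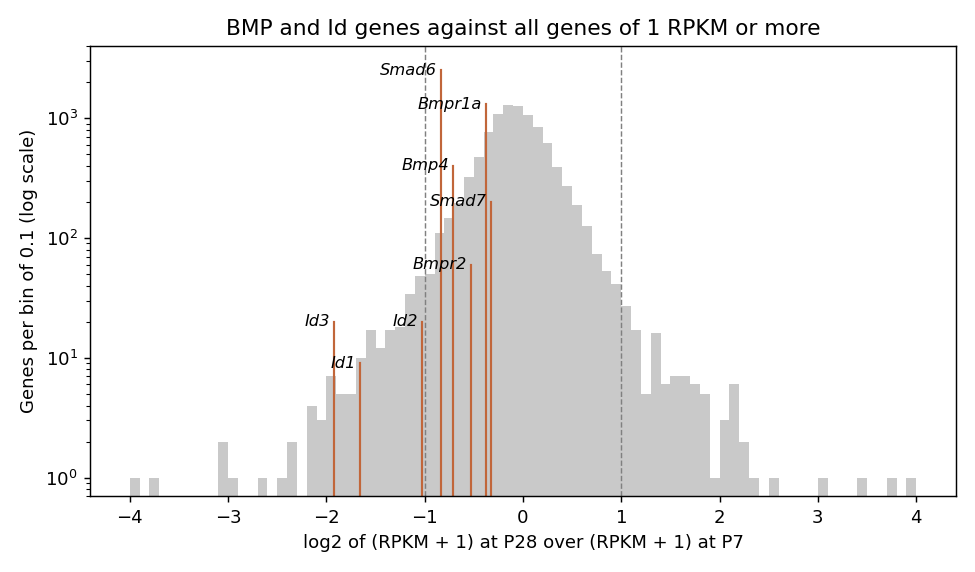
Number of genes per bin of the difference in log2(RPKM + 1), P28 minus P7, for 9653 genes, with a log count axis and dashed lines at 2-fold. Orange lines mark the 8 genes that passed the filter, and their height carries no value. The 1 gene below -4 is drawn in the end bin. Id3 (-1.92), Id1 (-1.66) and Id2 (-1.02) lie beyond the lower dashed line and the other 5 within.

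Other known BMP target genes differed in direction. Of 14 listed, 5 reached 1 RPKM and 0 were 2-fold apart on the log2(RPKM + 1) scale, with a median of -0.07, although 3 had plain ratios past 2-fold. Atoh8, a helix-loop-helix factor gene, had 1.11 RPKM at P7 and 0.328 at P28, a ratio of 0.296 (0.164 to 0.515), and Tmem100, which acts downstream of endothelial BMP receptors, had 2.96 and 1.41, a ratio of 0.475 (0.338 to 0.663). Junb, which also responds to stress and growth factors, was higher, with 2.62 and 5.44 RPKM, a ratio of 2.07 (1.60 to 2.68). Hes1, a Notch target as well, had 5.56 and 5.24 RPKM, with an interval of 0.753 to 1.18.

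The E protein genes Tcf3, Tcf4 and Tcf12, whose products the Id proteins bind, were all within 2-fold. Tcf12 was the highest, with 6.65 and 5.62 RPKM (ratio 0.844, 0.746 to 0.953). Tcf4 had 3.33 and 1.96 RPKM (0.590, 0.505 to 0.691) and Tcf3 1.92 and 1.30 (0.674, 0.5002 to 0.903). The E protein sum was 11.9 RPKM at P7 and 8.88 at P28, a ratio of 0.746, while the Id sum had a ratio of 0.389.

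Among 18 extracellular antagonists 8 reached 1 RPKM, and 1 was at least 2-fold lower on the log2(RPKM + 1) scale (1.96% of all genes were). This was Fstl1, a secreted follistatin-like protein that binds BMP4 and is made chiefly by mesenchyme, at 9.11 and 0.935 RPKM, a 9.74-fold difference (7.78 to 12.4). Fstl1 passed the filter through its P7 value alone. The follistatin relative Fstl3 had 3.29 and 1.60 RPKM (ratio 0.486, 0.360 to 0.658). Dand5, a Cerberus-family antagonist, was higher at P28, with 0.304 and 1.09 RPKM from about 8 and 42 reads (3.58, 1.74 to 9.27). Fstl3 and Dand5 were thus past 2-fold by plain ratio, though not on the log2(RPKM + 1) scale. Twsg1, a chordin-binding modulator and the highest of the list, had 14.6 and 14.9 RPKM, a ratio of 1.02 that became 0.774 with equal totals. Grem1 and Sost were listed at 0 in both libraries, and Nog (noggin) at 0.118 RPKM and 0.

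Intracellular and membrane regulators were all within 2-fold on the log2(RPKM + 1) scale in 13 of 13 genes that passed, with a median of -0.12. Ski, a corepressor of SMAD complexes, came closest, with 13.5 RPKM at P7 and 6.35 at P28, a ratio of 0.472 (0.432 to 0.514). Its relative Skil had 6.99 and 4.46 RPKM (0.638, 0.570 to 0.713) and the kinase gene Hipk2 16.0 and 9.98 (0.623, 0.576 to 0.674). Bambi, a decoy receptor that is induced by BMP, was higher at P28, with 1.14 and 2.16 RPKM (1.90, 1.504 to 2.40). Fkbp1a, whose product keeps type I receptors inactive, had the highest level, 24.1 and 23.3 RPKM (0.967, 0.875 to 1.07).

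In the TGF-beta branch, which signals through SMAD2 and SMAD3, 1 of 8 genes was at least 2-fold lower (1.96% of all genes were) and all 8 had a log2 ratio below 0, as did 60.7% of all genes. That gene was the ligand Tgfb2, at 7.19 and 1.98 RPKM, a 3.63-fold difference (3.13 to 4.22). Tgfb3 had 4.34 and 2.17 RPKM (0.5005, 0.412 to 0.607), Smad3 5.27 and 3.46 (0.657, 0.575 to 0.7501) and the type II receptor gene Tgfbr2 11.9 and 8.99 (0.754, 0.696 to 0.816). Over the 8 pathway lists, 51 of 88 genes passed the filter. Of these 2 (3.92%) were at least 2-fold lower, Fstl1 and Tgfb2, 0 were higher, and the median was -0.19 against -0.08 for all genes. With equal totals 6 were lower, and 9 of the 15 genes above 0 turned below 0.

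**Figure D5:**
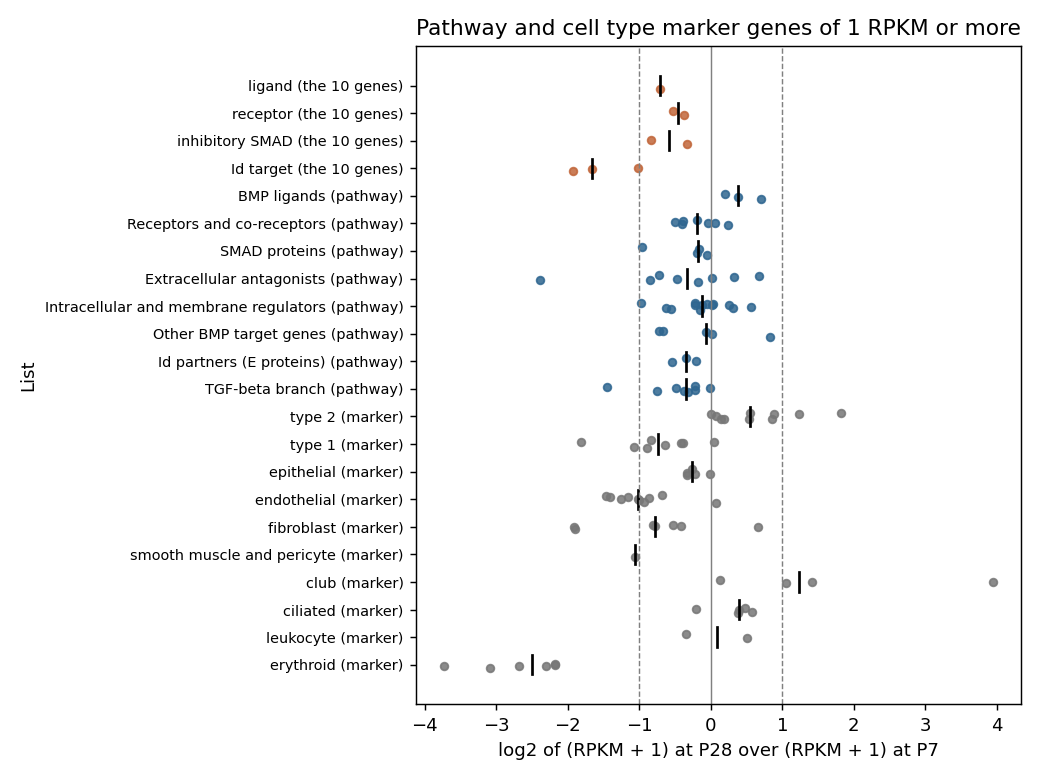
Difference in log2(RPKM + 1), P28 minus P7, for each gene that passed the filter, by list, with the list median as a black bar, a solid line at 0 and dashed lines at 2-fold. Orange points are the BMP and Id genes, blue points other pathway genes and grey points cell type markers. Besides Id1, Id2 and Id3, the pathway points beyond 2-fold are Fstl1 (-2.39) and Tgfb2 (-1.46), and the endothelial (-1.01), fibroblast (-0.78), type 1 (-0.74), smooth muscle and pericyte (-1.06), erythroid (-2.50) and epithelial (-0.26) markers also have medians below 0.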

How the data were processed

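Total RNA of the cells, sorted per the series title, was made into tagmentation (Nextera XT) libraries and sequenced in paired ends, per the labels' protocols. The authors deposited RPKM values, with a column for each of the 2 libraries, per the file headers. TopHat, TopHat2 2.0.9 and the GRCm38 (mm10) build are listed in the submitters' processing notes. How RPKM was computed, on which annotation and with which filters, is not given in the sources used here.

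Python 3.11.15, pandas 2.3.3 and SciPy 1.17.1 were used. The log2 ratio of (RPKM + 1) was called at 2-fold for genes reaching 1 RPKM in either library. The members, the lists and the rule for named genes were chosen with earlier results of these data known. That rule took the 10 genes and, from each of 8 pathway lists, the 4 with the largest absolute log2 ratio and the most abundant one. A gene that the rule took is not reported here. Grem1, Sost, Nog, Xist, Ddx3y, Sftpc, Esam, Emcn, Cldn5, Mfap4, Postn, Acta2, Dcn, Pdgfra, Lum, Gm38125 and the leukocyte markers were named after their values were seen. The procedure was tested on simulated data. These were drawn with the same transcript lengths that the procedure then used, so wrong lengths and copied reads were not tested.

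Read numbers came from RPKM times transcript length (GENCODE M21), and came out whole (tolerance 0.05) in 61.0% of the 2004 lowly expressed genes of P7 and in 58.3% of 1884 of P28. By these steps 1 read on 1 kilobase was worth 0.0568 RPKM at P7 and 0.0407 at P28, so the P28 library was deeper. The steps are assumed to be single reads. Where the authors used another transcript length, read numbers and interval widths are off. For Id3, whole reads that fit both values and a whole length were 481 and 160 rather than about 645 and 215, which gives a ratio interval of 0.198 to 0.285. No molecular identifiers are named, so reads may be copies of one molecule and the intervals cover counting error only. Alternatives were other pseudocounts, filters, scalings and transcript lengths, and marker sums without their highest P28 marker were added after seeing the data.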

Additional observations from a re-analysis of the deposited data

How the results depend on the processing

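No paired analysis was possible because each age has 1 library, so a replicate block could not be fitted. No library could be left out either. Id1, Id2, Id3, Bmp4, Bmpr1a and Bmpr2 were below 0, and Bmpr1b above 0, under each of the 6 other pseudocounts and scalings. With both libraries set to the same total RPKM, 5 of the 8 genes were at least 2-fold lower (Bmp4 at -1.08 and Smad6 at -1.02 added), as were 6 of 51 pathway genes and 445 of all genes, with 65 higher, and the median of all genes moved by -0.29. By plain RPKM ratio with an interval beyond 1, 5 of the 10 genes were at least 2-fold lower, with Smad6 and Id4 added (8.65% of all genes with a read). The Id sum ratio was 0.296 with equal totals and 0.416 with equal upper quartiles, and 0.389 as deposited. With a pseudocount of 0.1, 7 pathway genes were lower and 2 higher, and 530 and 226 of all genes. With a pseudocount of 5, 1 pathway gene was lower, and 34 of all genes were lower and 39 higher. With a filter of 5 RPKM, 93 of all genes were lower and 73 higher, since fewer genes were tested. With whole reads matched to both values, an alternative chosen after seeing the data, the interval of Bmpr1b still included 1 and those of the other 9 genes lay below 1. Longer or shorter GENCODE transcripts could alter only Bmp4 and Bmpr1b, since the other 8 have a single length there. They left the interval of the first below 1 and that of the second including 1. A length outside GENCODE used by the authors would alter the read numbers and intervals of the other 8 as well. Depth limits Bmpr1b, Id4 and Smad6, the members with the fewest reads.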
